A study of Mus musculus with 40 samples.

Results

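Of the 24499 genes in the count table, 8 genes of the BMP and Nodal pathways were followed through the mouse blastocyst. They were chosen by name, as the ligands Bmp4, Nodal and Gdf3, the co-receptor Tdgf1, the antagonists Lefty1 and Lefty2, and the target genes Id1 and Id3. All 8 genes had a row in the count table and in the table of expression levels. They were read in 40 single female cells of 13 blastocysts, obtained by natural mating of a C57BL/6J mother with a CAST/EiJ father and not cultured. At E3.5, these were 3 cells of the trophectoderm (TE, the outer layer) from 3 embryos and 14 cells of the inner cell mass (ICM) from 7 embryos. At E4.0, they were 13 cells of 3 embryos classed as primitive endoderm (PrE) and 10 cells of 2 embryos classed as epiblast (Epi). ICMs had been freed of outer cells with antibody and complement (immunosurgery). The E4.0 classes had been set by the study from lineage factors of these same libraries, and Bmp4 was among those factors, so the Bmp4 values of the E4.0 classes are given as a description without a test. An earlier study had supplied the whole TE class and 3 ICM cells, so that class and origin cannot be told apart for the TE. Most embryos are found in 1 class, but embryo 4 is represented in both TE and ICM by 1 cell each, and embryo 14 in both PrE (7 cells) and Epi (9 cells).

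BMP and Nodal are secreted ligands of the TGF-beta superfamily. Each binds a pair of serine/threonine kinase receptors on the cell surface, and the activated receptors phosphorylate Smad proteins that enter the nucleus. BMP signals pass through Smad1, Smad5 and Smad9 and switch on the Id genes, whereas Nodal signals pass through Smad2 and Smad3 with the DNA-binding cofactor Foxh1 and need a co-receptor such as Tdgf1 (Cripto). Lefty1 and Lefty2 are secreted proteins that block Nodal and are themselves switched on by it, which makes them a feedback arm of the pathway. In the mouse, both pathways are best known for patterning the embryo after implantation, and the levels of their genes in the blastocyst lineages are compared here.

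In the GENCODE annotation of GRCm38, the build of the deposited files, Lefty2 (chr1:180893108-180899103, forward strand) and Lefty1 (chr1:180935022-180938400, forward strand) lie only 35918 bases apart. Both Lefty genes share 281 windows of 50 bases, the read length of the libraries. These are 17.9% of the 1571 windows of the longest Lefty1 transcript and 11.6% of the 2424 windows of the longest Lefty2 transcript, so part of the reads could belong to either gene. Of the last 500 windows at the 3′ end, from which the RNA was copied, 50 of Lefty1 and none of Lefty2 are shared. Tdgf1 (chr9:110939603-110946158, reverse strand) shares 236 of 1883 windows with its processed pseudogene Tdgf1-ps1 on chromosome 16, but none of the last 500 windows. Bmp4 (chr14:46383520-46390669, reverse strand) overlaps 2 genes of the opposite strand, Gm15217 and Gm15222, and whether reads were counted by strand is not given in the sources used here. No other gene model overlaps Nodal (chr10:61417972-61425338, forward strand), Gdf3 (chr6:122605403-122610087, reverse strand), Id1 (chr2:152736251-152737410, forward strand) or Id3 (chr4:136143497-136145755, forward strand).

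RefSeq promoters of GRCm38.p6, from 250 bases before to 50 bases after the start site, were matched for 4 of the 8 genes, namely Bmp4, Nodal, Tdgf1 and Id3. They were searched on both strands for the SMAD box CAGAC, the GC-rich element GGCGCC of BMP-driven SMADs and the FoxH1 core AATCCAC, none of which contains another. The SMAD box occurred once in Tdgf1 and at 2 positions in Id3, and it is held by 49.6% of 32851 RefSeq promoters of the same length. The GC-rich element and the FoxH1 core, held by 11.9% and 2.49% of these promoters, had no match in the 4 promoters. The windows of 30 bases around these matches, the only ones found, are shown with the SMAD box in capitals and the rest in lower case. They lie at chr9:110946254-110946283 (reverse strand), chr4:136143643-136143672 and chr4:136143742-136143771 (both forward strand), with the match starting at -113, -167 and -68 from the RefSeq start site. The Id3 windows lie inside the GENCODE gene given above, whose start is further upstream.
Tdgf1: tttacatataacCAGACtatagagaattta
Id3, distal match: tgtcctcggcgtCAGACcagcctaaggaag
Id3, proximal match: ggacccttggcgGTCTGttttgaataaggg
Such a match is a description of the sequence and says nothing of binding in these cells.

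The total count was 1019112 to 12833051 per cell, and mapping was below 70% for 3 PrE cells of embryo 14 and for 1 ICM cell of embryo 10. The shallowest cell, PrE cell 2 of embryo 14 with 1019112 counts, was at 0 for all 8 genes. The classes carried their markers, although lineage factors of this kind had served to set the E4.0 classes. The summed level of 7 TE markers was 14729 to 24444 CPM (counts-per-million, the count scaled to a common library size) in TE cells and at most 4742 CPM in any other cell, Gata4 had a level of 86 to 368 in PrE cells and at most 1.62 in Epi cells, and Nanog was at 83.6 to 330.3 in Epi cells against 2.25 to 68.1 in PrE cells. Nanog and Gata4 are given here in RPRT, reads per retrotranscribed length of the transcript and scaled to the mapped reads of the cell, the unit used below for levels in single cells. Summed, 7 PrE markers were at 873 CPM or more in PrE cells and at most 152 CPM in Epi cells. The sum of 6 Epi markers was at least 846 CPM in Epi cells and at most 285 CPM in PrE cells. Other single markers overlapped, as Sox17 fell to 0 and Dab2 to 0.326 RPRT in PrE cells, and Klf2 reached 66.6 and Prdm14 17.6 RPRT there. The TE marker Elf3 had a median of 151 RPRT in PrE cells and 131 RPRT in ICM cells. RPRT did not follow the count in every cell with few reads, since 1 count of Nodal gave 2.35 RPRT in Epi cell 9 and 41 counts gave 3.76 RPRT in Epi cell 12, so counts are given where they are low. Of genes of maternal cells, Hbb-bs, Hba-a1 and Ptprc were at 0 in all 40 cells, and the summed level of the cumulus cell genes Amh and Foxl2 was at most 1.71 CPM.

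In RPRT, which allows levels to be compared between genes, Id3 and Tdgf1 led the 8 genes in Epi cells and in ICM cells. The median of Epi cells was 641 for Id3, 617 for Tdgf1, 181 for Bmp4, 119 for Id1 and 94.1 for Gdf3, against 1.91 for Lefty2, 1.34 for Nodal and 0.260 for Lefty1. The same order held in the ICM for Id3 (311) and Tdgf1 (175), followed by Gdf3 (65.1), Bmp4 (62) and Id1 (11.1), while the medians of Nodal, Lefty1 and Lefty2 were 0. In PrE cells, Gdf3 (16.6) and Id1 (15.6) came first, then Id3 (3.22), Lefty1 (1.44), Tdgf1 (0.789), Lefty2 (0.532) and Bmp4 (0.229). No gene had a median above 2.36, that of Id1, in the 3 TE cells. The plot of levels in each cell shows how far the cells of a class spread around these medians.

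**Figure D1:**
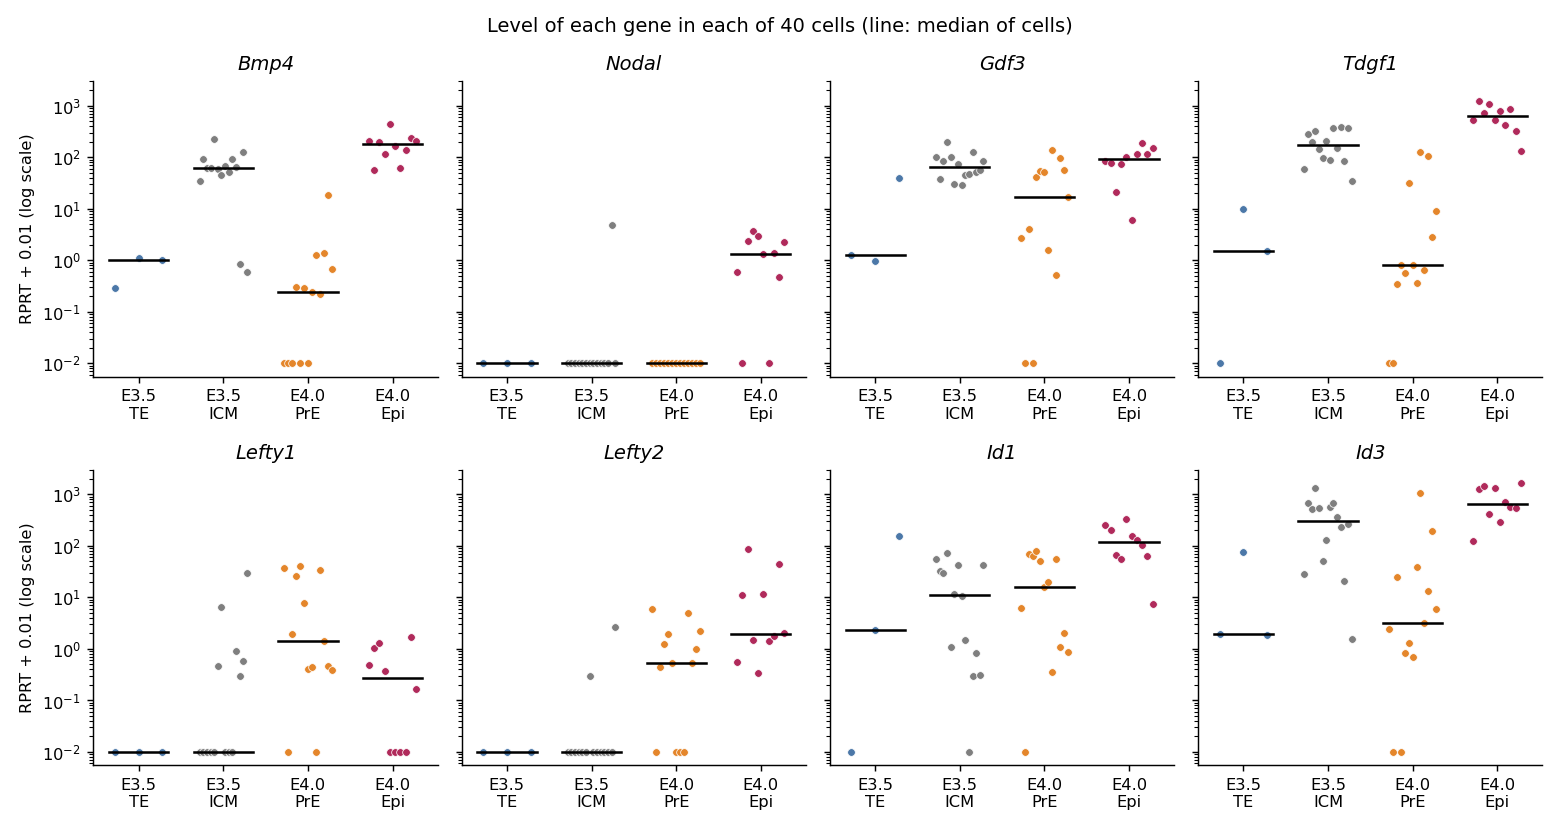
Level of each gene in each cell, as RPRT plus 0.01 on a log axis, for the 3 TE, 14 ICM, 13 PrE and 10 Epi cells, with a black line at the median of the cells and points at the bottom for cells at 0. Bmp4 and Tdgf1 were high in all Epi cells and in most or all ICM cells, Nodal was seen in Epi cells and 1 ICM cell, and Lefty1 and Lefty2 were highest in PrE and Epi cells, respectively.

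Bmp4, a ligand of the BMP branch, was high in every Epi cell and in most ICM cells, and low in PrE and TE cells. It was between 55.5 and 436 RPRT (median 181) in the 10 Epi cells, and between 34.2 and 229 RPRT in 12 of the 14 ICM cells. The other ICM cells, cell 75 of embryo 12 (0.841 RPRT) and cell 77 of embryo 13 (0.571 RPRT), were as low as TE cells (0.274, 1.01 and 1.09 RPRT). These ICM cells also held PrE factors, with Gata4 at 116 and 72.9 RPRT and Sox17 at 75.8 and 30.9 RPRT, and little of the epiblast ligand gene Fgf4 (1.4 and 0.156 RPRT). Cell 67 of embryo 10 had as much Gata4 (118 RPRT) and yet kept Bmp4 at 45 RPRT. Cell 35 of embryo 4, with Gata4 at 68.1, Sox17 at 83.6 and Fgf4 at 0 RPRT, kept Bmp4 at 34.2 RPRT, so the pattern was not the same in all Gata4-high ICM cells. In PrE cells, Bmp4 was at most 1.35 RPRT except in cell 86 of embryo 16 (18.1 RPRT), and 5 of the 13 cells had no count. For the comparison of classes, in which the embryo is the replicate, counts were summed per embryo and class and scaled to CPM by TMM. Bmp4 was at 296 and 355 CPM in the Epi of embryos 14 and 17, and at 0.0898, 1.59 and 11.3 CPM in the PrE of embryos 14, 15 and 16. These values did not overlap, which held in the same direction for 13.5% of all genes tested, and Bmp4 had helped to set these classes. In the ICM it ranged from 0.490 to 245 CPM (median 87.2, n = 7 embryos), and the lowest value was that of embryo 13, of which only cell 77 was sequenced.

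Nodal RNA was scarce and nearly confined to Epi cells among the cells sequenced. It was counted in 8 of 10 Epi cells, at up to 3.76 RPRT, and stood above 1 RPRT, the limit used by the study to call a gene expressed, in 6 of them. Outside the Epi it was counted only in ICM cell 76 of embryo 12, with 10 counts and 4.82 RPRT, while Epi cells had up to 41 counts. Gata6, a PrE factor, was at only 1.09 RPRT in that cell and Nanog, an epiblast factor, at 167 RPRT. All 3 TE and all 13 PrE cells were at 0, which, if cells were independent, allows a share of up to 23.1% of PrE cells with a count and sets no useful limit for 3 TE cells. The PrE cells come from only 3 embryos, which this limit leaves out of account, as it covers counting error only. Summed over embryos, Nodal was at 1.15 and 2.07 CPM in the Epi. Pooled over the Epi class, Nodal was at 1.24 CPM, 43.9 times the level of 0.0283 CPM that 3 counts over the whole PrE class would give. Without embryo 17, it was 40.6 times that level. This bound covers counting error in the PrE only, and neither amplification error nor the spread between embryos.

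Gdf3, a ligand that like Nodal acts through Tdgf1, was found in cells of all classes. All 14 ICM cells (28.6 to 194 RPRT) and all 10 Epi cells (6.09 to 189 RPRT) expressed it. PrE cells split into 7 cells at 16.6 to 140.1 RPRT and 6 cells at 0 to 3.99 RPRT. Among TE cells it was low in embryos 2 and 4 (1.25 and 0.943 RPRT) and high in cell 40 of embryo 5 (38.8 RPRT). The sums of Gdf3 overlapped between all classes compared, with means of 41.5 ± 68.4 CPM (SD, n = 3 embryos) in TE, 145 ± 44.6 CPM (n = 7) in ICM, 116 ± 73.3 CPM (n = 3) in PrE and 221 ± 86.4 CPM (n = 2) in Epi. In CPM, the order was thus Epi, ICM, PrE and TE, and Epi and ICM, and ICM and PrE, differed by less than the larger of their SDs.

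Tdgf1, the membrane-anchored co-receptor of Nodal, had the highest median RPRT of the Nodal-side genes among the 8 in ICM and Epi cells, whereas Gdf3 was higher in PrE cells. Every Epi cell (132 to 1243 RPRT) was above every PrE cell (0 to 128 RPRT), although the gap between cell 90 of embryo 17 and PrE cell 59 of embryo 15 was small. All 14 ICM cells held it, at 33.8 to 388 RPRT, with the lowest value again in cell 77. In the PrE, 10 of the 13 cells were at most 8.92 RPRT, and the other cells were cell 59 (128 RPRT), cell 85 of embryo 16 (105 RPRT) and cell 10 of embryo 14 (31.2 RPRT). TE cells were at 0, 1.53 and 9.78 RPRT, so every ICM cell was above every TE cell. Both Epi embryos differed widely, with 1248 CPM in embryo 14 and 217 CPM in embryo 17, and the latter lay within the range of ICM embryos (66.2 to 431 CPM, median 292). PrE embryos were at 9.91, 160.2 and 49.5 CPM, all below both Epi embryos, as was the case for 13.5% of all genes tested.

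Lefty1 was highest in PrE cells and Lefty2 in Epi cells, although 4 of 13 PrE cells and 3 of 10 Epi cells had both above 1 RPRT. In these Epi cells, namely 8, 9 and 17, Lefty1 had only 1, 7 and 11 counts, against 139, 1148 and 702 of Lefty2. Whether these were reads of Lefty2, with which Lefty1 shares windows, was not tested. Lefty1 was above 4 RPRT in 5 of 13 PrE cells, namely cells 1, 6, 7 and 10 of embryo 14 (36.6, 25.6, 40.2 and 7.72 RPRT, the first from 53 counts in a poorly mapped cell) and cell 63 of embryo 16 (34.1 RPRT). It reached at most 1.73 RPRT in Epi cells. Among ICM cells it was high only in cell 77 (30.2 RPRT) and cell 67 (6.53 RPRT), both of which had high Gata4. Cells 75 and 35, also high in Gata4, had 0.288 and 0 RPRT. Lefty2 was above 4 RPRT in 4 of 10 Epi cells, all of embryo 14, namely cells 9 (87.5 RPRT), 17 (43.7 RPRT), 14 (11.5 RPRT) and 8 (11 RPRT). It was at most 5.85 RPRT in PrE cells and 2.65 RPRT in ICM cells, again in cell 77. In cells of the same class, Lefty2 was above Lefty1 in all 10 Epi cells and Lefty1 was above Lefty2 in 9 of 13 PrE cells. No Epi cell had Lefty1 above 10 RPRT and no PrE cell had Lefty2 above 10 RPRT, while PrE cells 1 and 63 had both genes above 4 RPRT. As 9 of the 10 Epi cells come from embryo 14, the difference within the Epi rests mostly on that embryo, whereas Lefty1 was high in PrE cells of embryos 14 and 16 (20.8 and 12.7 CPM) and not of embryo 15 (0.144 CPM). Both genes were at 0 in all TE cells.

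The Epi cells with the most Nodal were not those with the most Lefty2. The Epi cell with the most Nodal, cell 12 (41 counts), had 22 counts of Lefty2, and cell 13 (24 counts of Nodal) had 1 count of Lefty2. Conversely, Epi cell 9 had 1148 counts of Lefty2 and 1 of Nodal, and cell 8 had 139 counts of Lefty2 and none of Nodal. Over the 10 Epi cells, Spearman's rho between both genes in RPRT was -0.14, which at such low counts of Nodal is given as a description only.

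Id1 and Id3 encode inhibitors of basic helix-loop-helix transcription factors and are classical targets of BMP signals, but their patterns differed. Id3 was at 127 to 1649.8 RPRT in Epi cells and above 20 RPRT in 13 of 14 ICM cells, with the highest ICM value of 1357 RPRT in cell 64 of embryo 8 and the lowest of 1.55 RPRT in cell 77. PrE cells had a median of only 3.22 RPRT, but cell 59 of embryo 15 was at 1082 RPRT and cell 86 of embryo 16 at 193 RPRT. These were the PrE cells with the most Nanog (68.1 and 32.2 RPRT), but also those with the most Sox17 (224 and 62.5 RPRT). Their Gata4 was at 166 and 262 RPRT and their Fgf4 at 0.162 and 1.39 RPRT. Cell 59 held 9601 of the 10002 counts of its embryo, which was at 722 CPM, whereas embryos 14 and 16 were at 1.26 and 61.1 CPM. Epi embryos were at 631 and 1418 CPM, ICM embryos at 1.18 to 722 CPM (median 252), and the TE at 0.613, 80.6 and 2.39 CPM.

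Id1 stood at lower levels and did not follow Bmp4 or Id3. It was at 56.6 to 336 RPRT in the 9 Epi cells of embryo 14 and at 7.48 RPRT in the Epi cell of embryo 17. In the ICM it ranged from 0 to 72.5 RPRT, and it was at most 0.811 RPRT in all 3 cells of embryo 12, of which 2 had Bmp4 at 65.5 and 128 RPRT. In the PrE, 7 of 13 cells were above 10 RPRT, of which 5 were in embryo 14 (15.6 to 78.7 RPRT), although no PrE cell of embryo 14 had more than 0.299 RPRT of Bmp4. The highest E3.5 value was that of TE cell 40 of embryo 5 (154 RPRT), and the other TE cells were at 0 and 2.36 RPRT. Above 10 RPRT, Id1 and Id3 were found together in 9 of 10 Epi cells and 7 of 14 ICM cells but in 2 of 13 PrE cells, of which 5 had Id1 alone and 3 had Id3 alone. Sums of Id1 overlapped in every comparison, at 80.8 ± 138 CPM (SD, n = 3 embryos) in TE, 20 ± 19.8 CPM (n = 7) in ICM, 21.3 ± 12.2 CPM (n = 3) in PrE and 64.5 ± 82.9 CPM (n = 2) in Epi.

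**Figure D2:**
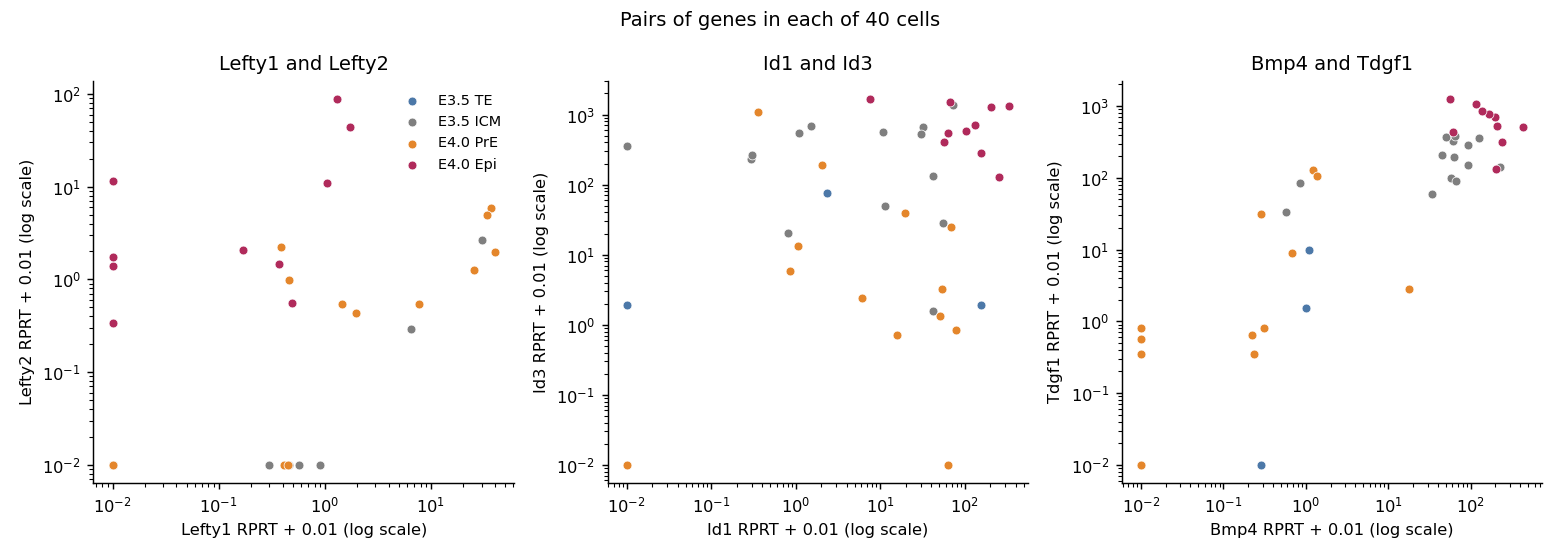
Levels of Lefty1 against Lefty2, Id1 against Id3 and Bmp4 against Tdgf1 in each of 40 cells, as RPRT plus 0.01 on log axes, with 1 point per cell coloured by class. Epi cells lie on the Lefty2 side and PrE cells with high levels on the Lefty1 side, and 5 PrE cells have Id1 but not Id3 above 10 RPRT.

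Sums of embryos were then compared between classes with the quasi-likelihood F test of edgeR, fitted over 12599 genes and all 15 sums and adjusted by Benjamini-Hochberg over all genes tested. All 8 genes passed the filter on low counts. In ICM over TE cells, 2 of the 8 genes passed an adjusted p of 0.05, both higher in the ICM, where 4.23% of all genes tested were called. The log2 fold change was 5.16 (SE 1.29, adjusted p = 0.0343 in edgeR) for Tdgf1 and 6.10 (SE 1.59, adjusted p = 0.0392 in edgeR) for Bmp4, while the median of all genes was 0.70. The median of the 8 genes was 2.51 with genes at 0 in TE set to the bounds below, 4.21 with fitted values and 2.66 with the block. The sums of Tdgf1 did not overlap between ICM and TE, which held in the same direction for 5.18% of all genes, and those of Bmp4 overlapped because of ICM embryo 13. DESeq2, which called 2769 of the 12599 genes, called Lefty1 as well as both of these genes. Lefty1 was at 0 in all TE cells, and 530 of its 588 ICM counts came from cell 77 of embryo 13. Bmp4 lost its call without any of embryos 2, 4, 5, 8, 9 or 10 (adjusted p = 0.0572 to 0.105 in edgeR) and Tdgf1 without any of embryos 5, 8 or 10 (0.0537 to 0.121 in edgeR). With limma-voom and embryo as a random replicate block, which called 3.44% of all genes, none of the 8 genes passed (adjusted p = 0.174 for Bmp4 and 0.0751 for Tdgf1). Within the cells of the earlier study alone, the log2 fold changes were 4.90 for Bmp4 and 5.04 for Tdgf1 (adjusted p = 0.372 and 0.308 in edgeR).

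The other genes did not pass between ICM and TE cells. Gdf3 had a log2 fold change of 1.81 (SE 0.98, adjusted p = 0.244 in edgeR), which rested on the high TE cell of embryo 5. Without that embryo it was 6.15 (adjusted p = 0.00235 in edgeR), and with the size factors of DESeq2 in place of TMM it was -0.25. Id3 was at 3.21 (SE 1.65) and Id1 at -2.01 (SE 1.56), with adjusted p = 0.229 and 0.402 in edgeR. Id1 turned to 4.06 without embryo 5. For the genes at 0 in all TE cells, a fitted fold change depends on the prior count and is not read here. Against a level of 0.193 CPM, which 3 counts over the TE class would give, the pooled ICM level was 19.7 times as high for Lefty1. For Lefty2 it was 2.51 times as high, and these bounds cover counting error in the TE only. Without embryo 13, the pooled level of Lefty1 was 2.08 times that floor and Lefty2 was below it, so both limits came from cell 77.

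**Figure D3:**
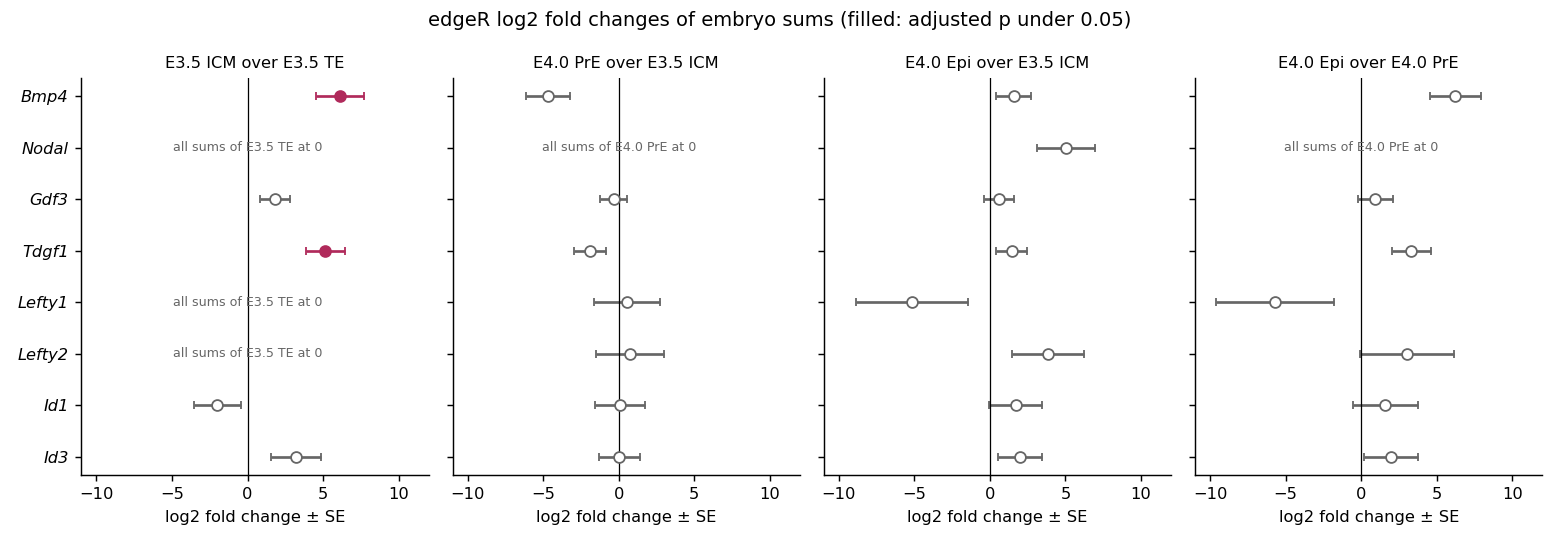
Log2 fold change of each gene in the 4 comparisons, from edgeR on embryo sums, with error bars of 1 SE and filled points for an adjusted p under 0.05. Bmp4 and Tdgf1 in ICM over TE cells are the filled points, and genes for which every sum of a class was at 0 carry a note in place of a point.

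ICM cells were next compared with each of the E4.0 classes, and both comparisons share the ICM sums. In PrE over ICM cells, none of the 8 genes and 0% of all genes passed in edgeR, with 1160 of all genes and none of the 7 genes other than Bmp4 at an unadjusted p under 0.05. DESeq2 called 349 genes and limma-voom 251 genes. Bmp4, described without a test, had a log2 fold change of -4.67 (SE 1.45). Tdgf1 was at -1.89 (SE 1.05, adjusted p = 0.615 in edgeR) and at -3.76 without PrE cell 59, and Id3 at 0.02 (SE 1.36) and at -2.84 without that cell. The values of Gdf3 (-0.33, SE 0.90), Lefty1 (0.54, SE 2.18), Lefty2 (0.77, SE 2.25) and Id1 (0.09, SE 1.64) were smaller than their SEs.

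In Epi over ICM cells, edgeR called 0.00794% of all genes, which is the single gene 1700011H14Rik (adjusted p = 0.0236 in edgeR), and none of the 8 genes. At an unadjusted p under 0.05 there were 916 genes, of which 1 was among the 8. Nodal had a log2 fold change of 5.04 (SE 1.93, adjusted p = 0.553 in edgeR) which was 8.24 without embryo 12, and it passed the filter on low counts only through the Epi. Bmp4, described without a test, was at 1.56 (SE 1.17). Lefty2 was at 3.82 (SE 2.38, adjusted p = 0.709 in edgeR) but passed in limma-voom with the embryo block (7.38, SE 1.61, adjusted p = 0.0157), where 1.9% of all genes were called. Its Epi sums (3.05 and 25.5 CPM) overlapped the ICM sums (0 to 6.96 CPM), and the value in edgeR was 1.58 without embryo 14 and 8.73 without embryo 13. Id3 (1.99, SE 1.44), Id1 (1.69, SE 1.75), Tdgf1 (1.44, SE 1.02) and Gdf3 (0.61, SE 0.99) were positive and Lefty1 was negative (-5.17, SE 3.69), and none of them passed in either fit. DESeq2 called 494 genes and limma-voom without the block 240 genes.

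Between both E4.0 classes, the outcome depended on the model. In edgeR, 0% of all genes passed in Epi over PrE cells, with 965 of all genes at an unadjusted p under 0.05, among them Nodal and Tdgf1. Even Gata4, at 86 to 368 RPRT in PrE cells and at most 1.62 RPRT in Epi cells, was thus not called. With so few embryos, a gene that did not pass in an E4.0 comparison can still differ between the classes. DESeq2 called 419 genes, limma-voom 239 genes, and limma-voom with the embryo block 341 genes, or 2.71% of all genes. Embryo 14 gave cells to both classes, and with the block Tdgf1 (log2 fold change 5.01, SE 0.96, adjusted p = 0.00686 in limma) and Id3 (5.47, SE 1.44, adjusted p = 0.0436 in limma) were higher in Epi cells. Nodal also passed with the block (adjusted p = 0.0237 in limma), but it passed the filter on low counts only through the Epi, in which it is high, so that this call is no support, and the bound given above stands in place of a fitted value. In edgeR, Tdgf1 was at 3.32 (SE 1.29, adjusted p = 0.629) and Id3 at 1.97 (SE 1.79, adjusted p = 0.915), and without cell 59 they were at 5.20 and 4.83 (adjusted p = 0.481 and 0.571 in edgeR). Without embryo 14, Tdgf1 was at 1.05 (adjusted p = 0.993 in edgeR). Bmp4, which helped to set the classes, had a log2 fold change of 6.23 (SE 1.67). The sums of Tdgf1 were higher in both Epi embryos than in all PrE embryos, which held for 13.5% of all genes with only 2 against 3 embryos. Those of Id3 overlapped, as PrE embryo 15 (722 CPM) was above Epi embryo 14 (631 CPM). Gdf3 (0.94, SE 1.16), Lefty2 (3.04, SE 3.11), Id1 (1.60, SE 2.15) and Lefty1 (-5.71, SE 3.9) passed in neither fit.

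Allelic ratios, the paternal share of the reads that tell both parental genomes apart, were read in cells with more than 4 RPRT of a gene. The reverse cross was not among these cells, so every paternal read was also a CAST/EiJ read. Parent of origin and strain of an allele therefore cannot be told apart in any of these ratios. Nodal had no ratio, and the ratios came without read counts, so their depth is unknown and no interval is given. Id1 was read almost wholly from the paternal allele in the Epi of embryo 14, at 0.861 to 1 in all 9 cells (mean 0.951). Among 4159 autosomal genes with a ratio in at least 5 of these cells, the median of the means was 0.495 and 0.673% had a mean as high as that of Id1. In PrE cells of the same embryo, Id1 had ratios of 0, 0.389, 0.444, 0.812 and 0.980, and in TE cell 40 it had a ratio of 0. The bias of Id1 to the paternal, CAST/EiJ allele in this embryo was thus found in its Epi cells and not in all its PrE cells. ICM cells had Id1 ratios of 0.6 to 1 in 5 of 6 cells and of 0.0617 in cell 64 of embryo 8. No ratio of Id1 was available for the Epi cell of embryo 17.

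Tdgf1 ratios were above 0.5 in only 3 of 14 ICM cells, and in several embryos they were close within the embryo while differing between embryos. In the 9 Epi cells of embryo 14 it was at 0.293 to 0.456, with an SD of 0.0574 between cells, and only 2% of the 4159 genes had an SD as small. The median SD of these genes was 0.307, and whether the high level of Tdgf1 had a part in this was not tested. In the ICM, the 3 cells of embryo 8 were at 0.269 to 0.3, the 2 cells of embryo 9 at 0.609 and 0.657, and the 3 cells of embryo 10 at 0.0776 to 0.217. Embryo 12, with cells at 0.149, 0.356 and 0.543, did not show this closeness. The Epi cell of embryo 17 was at 0.906. Averaged over embryos, the Tdgf1 ratio was 0.368 ± 0.159 (SD, n = 7 embryos) in the ICM and 0.633 ± 0.386 (n = 2) in the Epi.

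Bmp4 and Gdf3 varied from cell to cell. Bmp4 was at 0.0130 to 1 in 12 ICM cells, with 4 cells above 0.85 and 1 below 0.15, and at 0.0997 to 0.680 in 10 Epi cells, with none above 0.85. Within ICM embryo 8, the cells were at 0.209, 0.544 and 0.992. Gdf3 was at 0.158 to 0.970 in 14 ICM cells and at 0.303 to 1 in 9 Epi cells, whereas 6 of its 7 PrE cells were above 0.85 or below 0.15. Id3 was read mostly from the maternal allele, which is also that of the mother's strain, in the 9 ICM cells with a ratio (0 to 0.556, median 0.194). The mean of only 4.5% of 5850 autosomal genes of the ICM was as low as that of Id3. In the PrE, cells 59 and 86 were instead at 0.769 and 1. Only 2 of the 10 Epi cells had an Id3 ratio (0 and 0.349), although all were at 127 RPRT or more. The study set a minimum of informative reads for a ratio, so the Id3 ratios may rest on few reads. Lefty1 had ratios from 0.0315 to 1 in 5 PrE cells, without a common direction.

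**Figure D4:**
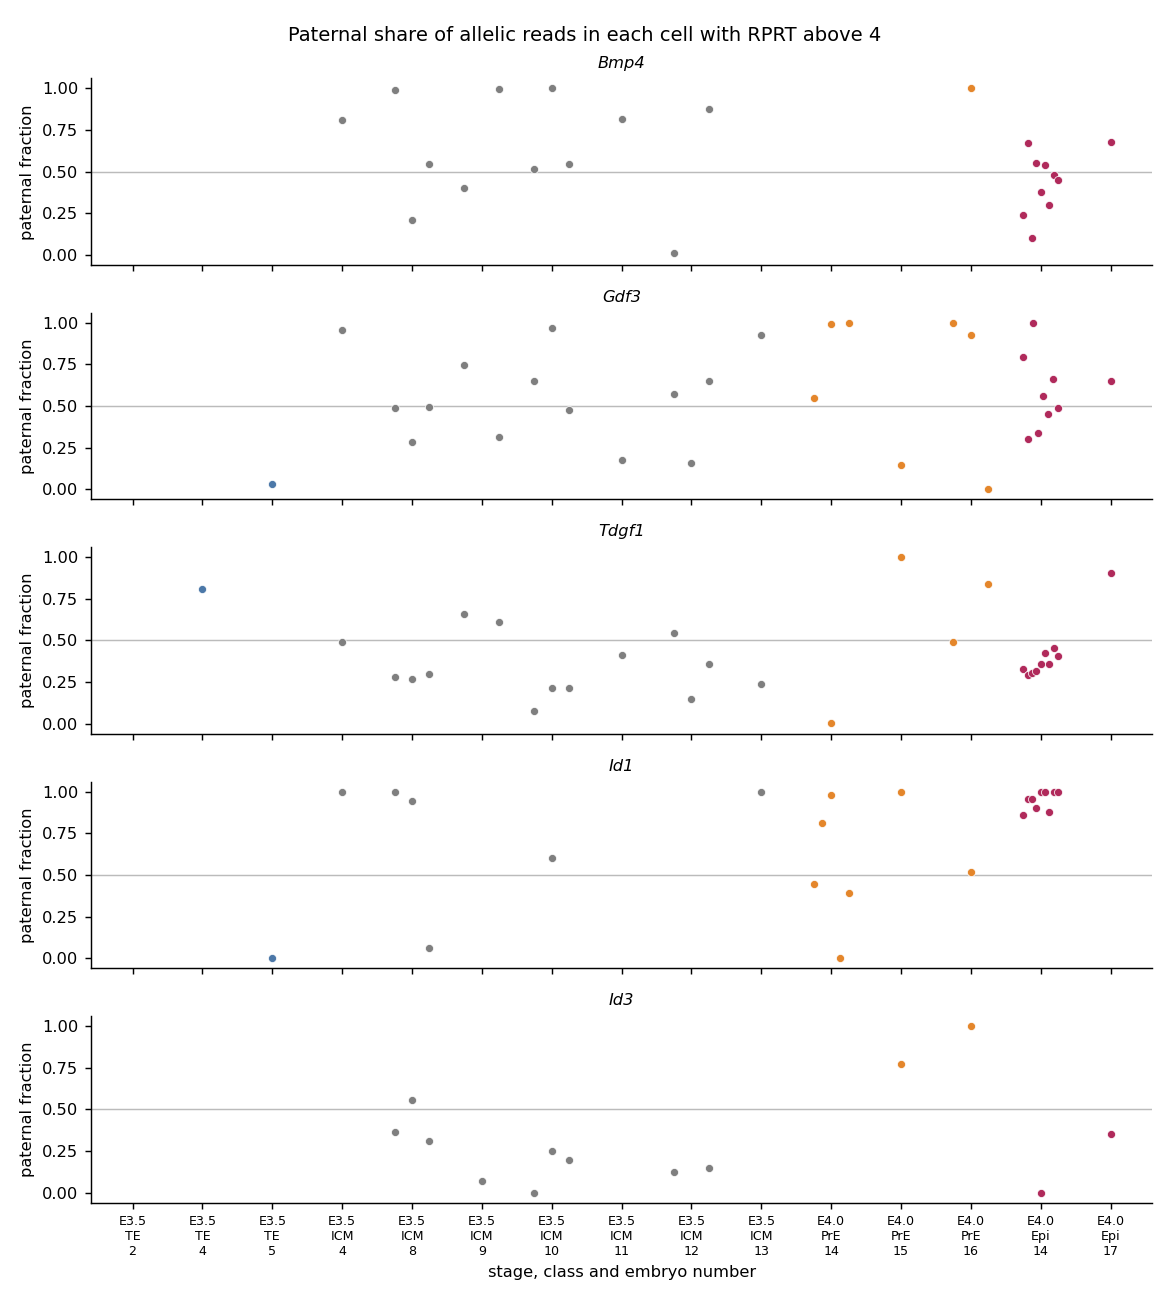
Paternal fraction of allelic reads in each cell with more than 4 RPRT of the gene, for Bmp4, Gdf3, Tdgf1, Id1 and Id3, with 1 column per embryo and class and a grey line at 0.5. The 9 Epi cells of embryo 14 lie at 0.861 or higher for Id1 and between 0.293 and 0.456 for Tdgf1.

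To place the 8 genes in their pathways, a list of 54 genes that includes them was read in the same fit. It covers ligands, receptors, co-receptors, convertases, Smads, a cofactor, antagonists, inhibitory Smads and targets, and 37 of the genes passed the filter on low counts. In ICM over TE cells, 3 genes were higher (Bmp4, Tdgf1 and Foxh1) and 1 was lower (Cfc1), beside 4.23% of all genes called. Of these 4 genes, only Foxh1 passed with the embryo block. The median log2 fold change of the list was 1.14 with genes at 0 in a class set to their bound (1.49 fitted, 0.66 with the block), against 0.70 for all genes. Foxh1, the nuclear partner of Smad2 and Smad3, was at 3.10 CPM in TE and 93.5 CPM in ICM (log2 fold change 4.95, SE 1.12, adjusted p = 0.0238 in edgeR). Cfc1 (Cryptic), the other co-receptor of the family, was at a mean of 9.96 ± 17.3 CPM (SD, n = 3 embryos) in TE and 0.00956 CPM in ICM. Its log2 fold change was -9.22 (SE 2.33, adjusted p = 0.0355 in edgeR). The median TE cell was at 0 RPRT, so this call rested on 1 TE cell. With the block the log2 fold change was -4.39 (adjusted p = 0.155 in limma). No gene of the list passed in edgeR in the other comparisons. The medians of the list there were 0.09 in PrE over ICM, -0.54 in Epi over ICM and -0.74 in Epi over PrE cells, against -0.05, -0.21 and -0.11 for all genes.

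With the embryo block, limma called further genes of the list. Bmp6, a BMP ligand, was lower in Epi than in PrE cells (log2 fold change -9.11, SE 2.03, adjusted p = 0.0175), at means of 29.2 CPM in PrE and 0.0606 CPM in Epi. Smad7, an inhibitory Smad that is induced by both pathways, was higher in Epi than in PrE cells (6.21, SE 1.42, adjusted p = 0.0195) and than in ICM cells (5.48, SE 1.25, adjusted p = 0.0213), at means of 3.52 CPM in Epi, 0.0271 CPM in PrE and 0.0577 CPM in ICM. Like Nodal, Smad7 passed the filter on low counts only through classes in which it is high, the Epi and TE. Its calls, also that in ICM over TE cells, are therefore no support. Id2, a further member of the Id family, was lower in ICM than in TE cells (-8.19, SE 1.39, adjusted p = 0.00283), at means of 160.1 CPM in TE, 8.45 CPM in ICM and 0.0185 CPM in Epi. The SD of Id2 in the ICM was 21.9 CPM, so it may have passed the filter through the TE alone, and its call is not read as support. In ICM over TE cells, the block also called Foxh1 (6.24, adjusted p = 0.00715) and Smad7 (-4.67, adjusted p = 0.0478).

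Some of the genes that receive and relay the signals were found in each class. Of the receptor genes, Acvr1c was at 0 in every class and Acvr1 at 0 in TE and Epi. The type I BMP receptor gene Bmpr1a had means of 3.89 CPM in TE, 19 CPM in ICM, 27.5 CPM in PrE and 24 CPM in Epi, and the type II receptor gene Acvr2b 20.8, 4.63, 14 and 12.6 CPM in the same order. The mean of the Nodal receptor gene Acvr1b was 81.4 CPM in TE and at most 1.02 CPM in the other classes, although the median TE cell was at 0.236 RPRT (log2 fold change of ICM over TE -6.33, SE 1.99, adjusted p = 0.0697 in edgeR). Smad2, Smad4 and Smad5 were found in every class, with means of 9.51 to 78.2, 26.1 to 67.7 and 20 to 39.9 CPM. Of the convertases that cut the ligand precursors, Pcsk6 was at 76.5 to 256 CPM in every class, and Furin was at 154 CPM in TE, 30.4 CPM in ICM, 16.2 CPM in PrE and 0.976 CPM in Epi. Bambi, a decoy receptor for BMP, was at 29.2 CPM in Epi, 12.9 CPM in PrE and 6.49 CPM in ICM. None of the receptors, convertases or Smads and not Bambi passed in edgeR. The BMP-side inhibitory Smad gene Smad6 did not pass the filter and had a mean of at most 0.395 CPM in any class.

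**Figure D5:**
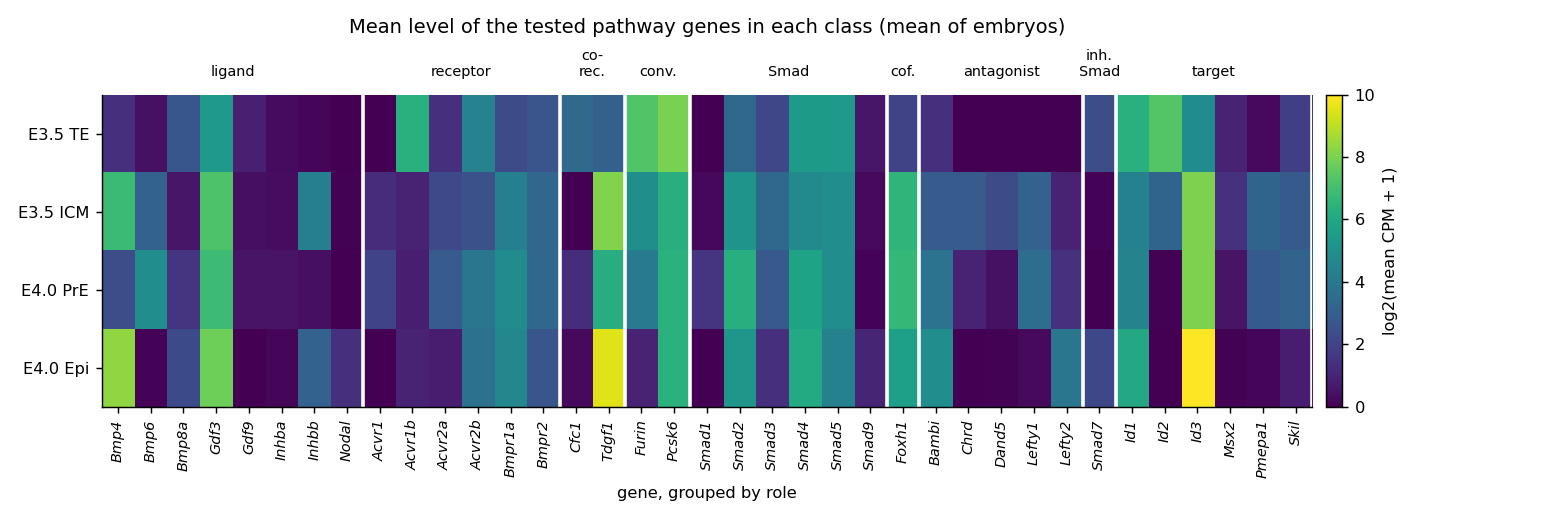
Mean level of the 37 tested genes of the pathway list in each class, as log2 of the mean CPM of embryos plus 1, with genes grouped by role. Id3 and Tdgf1 are the brightest fields, both in the Epi row, Pcsk6 (256 CPM), Id2 (160.1 CPM) and Furin (154 CPM) lead the TE row, and Foxh1 is darker in TE (3.10 CPM) than in the other rows.

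Across the 15 sums, the 8 genes fell into patterns that were compared by Pearson's r of log2(CPM + 1), as a description without a test because sums share embryos and classes. Tdgf1 and Id3 had the highest r among the pairs of the 8 genes (0.82), followed by Bmp4 with Tdgf1 (0.79) and Bmp4 with Id3 (0.76). Id1 was not close to Id3 (-0.15) or Bmp4 (-0.11), and Lefty1 ran against Id3 (-0.49) and Bmp4 (-0.47). Of all tested genes, those most like Bmp4 were Bcat1, Slc7a3 and Sms (each 0.90), and those most like Id3 were Nanog (0.88), Morc1 (0.87) and LOC105246506 (0.86). Ly6e (0.93), D230025D16Rik (0.93) and Ticrr (0.92) were most like Tdgf1, Tbc1d13 (0.91), Zfp622 (0.90) and Srfbp1 (0.89) most like Gdf3, and Cwf19l1 (0.83), Erp44 (0.81) and Lrrc8a (0.80) most like Id1. For Lefty1 they were 2310022B05Rik, Gfi1b and Adgra2 (each 0.93), and for Lefty2 Fstl1 (0.92), Dnah7b (0.89) and Il7 (0.89). The genes most like Nodal (Tsnaxip1, Slco4a1 and Etaa1os, each 0.98) share with it values near 0 in most sums.

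Within the ICM, before the E4.0 classes are told apart, Bmp4, Tdgf1 and Id3 went with Nanog. Over the 14 ICM cells, which come from 7 embryos and are not independent, Spearman's rho with Nanog was 0.60 for Bmp4, 0.58 for Tdgf1 and 0.69 for Id3, and with Gata6 it was -0.45 for Bmp4, -0.55 for Tdgf1 and -0.22 for Id3. Nanog and Gata6 themselves had a rho of -0.55. Bmp4 had a rho of 0.58 with Id3 and of -0.46 with Id1. Within the Epi, Bmp4 and Tdgf1 were ranked inversely (rho -0.62 over 10 cells). Within the PrE, Lefty1 went with Lefty2 (0.71) and with Id1 (0.77), and Tdgf1 with Gdf3 (0.77), over 13 cells of which 7 are from embryo 14. Depth differed between these cells, and its part in the correlations was not tested. The part of reads shared by Lefty1 and Lefty2 in their correlation was not tested either.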

How the data were processed

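For the deposited counts, the authors aligned reads to mm10 (TopHat2 2.1.0) and assigned them to genes (HTSeq 0.6.1), without normalization. The authors scaled the signal in the deposited RPRT table to retrotranscribed length and depth. The deposited allelic ratios are the authors' fraction of paternal reads. Each cell matched 1 column in each file. RNA was copied from the 3′ end and amplified without molecular identifiers, so levels include amplification error.

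Counts of cells of the same class and embryo were added up, which gave 15 sums, and tested in R 4.3.3 with edgeR 4.0.16 (filterByExpr by class, TMM, quasi-likelihood F test, 2-sided). SEs were derived from the F statistic. Alternatives used DESeq2 1.42.0, limma 3.58.1 (correlation within embryos 0.187, from embryos 4 and 14, each of which gave 2 classes), other scaling, filters, cells and embryos. The pipeline was tested on simulated data. Other steps used Python 3.11.15. Classes and embryos were taken from the study's sample list, since the labels give only the stage. The genes and lists were chosen with earlier results of these data known. Named were the 8 genes, the genes of the list of 54 that passed a test or had the highest CPM of their role, and the 3 genes most like each of the 8.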

Additional observations from a re-analysis of the deposited data

Results flagged for a closer look

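Over the 7 ICM embryos and the 10 Epi cells, 16 sets of values of the 8 genes were checked for a sample far from the others by Dixon's criterion, of which chance flags about 1 in 20, and 5 stood out. In the ICM, embryo 13 had Lefty1 at 51.9 CPM and Lefty2 at 6.96 CPM, each far above the other 6 embryos, and embryo 12 had Nodal at 0.27 CPM while the others were at 0. In the Epi, cell 13 of embryo 14 had Bmp4 at 436 RPRT and cell 9 of embryo 14 had Lefty2 at 87.5 RPRT. Embryo 13 was represented by 1 cell, and its gap for Lefty1 took 0.958 of the range of all ICM embryos.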

How the results depend on the processing

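The numbers of genes called varied with the model, and the cause was not tested. In ICM over TE cells, 533 genes were called (269 higher, 264 lower), against 2769 with DESeq2, 1726 with DESeq2 size factors in edgeR (261 higher, 1465 lower), 370 without TMM (293 higher, 77 lower), 179 with only both classes fitted, 8 with only cells of the earlier study and 159 to 971 without 1 embryo. In PrE over ICM cells, 0 genes became 349 with DESeq2, 251 with limma-voom, 242 with the embryo block, 26 without the filter, 2 without cell 59 and 0 to 1 without 1 embryo. In Epi over ICM cells, 1 gene became 494, 240 and 239 in these 3 models, 37 without the filter, 3 with both classes only and 0 to 7 without 1 embryo. In Epi over PrE cells, 0 genes became 419, 239 and 341, then 13 without the filter and 67 with both classes only.

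Values of single genes turned direction as follows. Nodal and Lefty2 were at 0 in all TE cells, so their values over TE depend on the prior count. In ICM over TE cells, Nodal was at -0.65 with DESeq2, -1.28 with limma-voom, -1.23 with the block and 0.00 to 3.55 without 1 embryo, Gdf3 at -0.25 with DESeq2 and with its size factors, Lefty2 at -0.31 with limma-voom and with the block, and Id1 at 0.06 and 0.31 in these and -2.99 to 4.06 without 1 embryo. In PrE over ICM cells, Id3 was at -2.96 with limma-voom, -2.88 with the block, -0.73 without TMM, -2.84 without cell 59 and -3.05 to 0.60 without 1 embryo, and Id1 at -0.01 with DESeq2, -0.04 without TMM, -0.00 with size factors, -0.05 with cells scaled alike and -0.49 to 0.42 without 1 embryo. Leaving out 1 embryo also gave -0.27 to 4.84 for Lefty1 and -0.36 to 5.68 for Lefty2 in PrE over ICM cells, -0.32 to 2.20 for Tdgf1 and -1.77 to 2.62 for Id1 in Epi over ICM cells, and -1.28 to 2.53 for Id1 in Epi over PrE cells. Of the alternatives for single genes, 527 kept direction and side of the threshold, 13 passed it newly, 16 lost it and 32 turned direction. With a limit of 4 RPRT, 0 TE cells expressed Bmp4, 0 Epi cells Nodal or Lefty1, 0 ICM cells and 4 Epi cells Lefty2. The likeness of genes depended on the pseudocount, and with 0.1 in place of 1, 0 of the 3 genes most like Lefty2 and 1 of those most like Nodal or Gdf3 remained. Leaving out cell 59 and the robust fit of edgeR were chosen after seeing the data.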
